A study of Homo sapiens with 8 samples.

Results

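The libraries described here come from SW1990, an established human pancreatic adenocarcinoma cell line, and compare cells that overexpress EBF2 (EBF2-OE) with cells that carry the empty vector (Vector). They are 4 of the 8 RNA-seq libraries of the series, chosen by their labels alone, with 2 libraries in each group. The labels number them Vector 2, Vector 3, EBF2-OE 2 and EBF2-OE 3, and do not say what the numbers 2 and 3 stand for. Libraries of the same number are read as a numbered pair, EBF2-OE 2 over Vector 2 and EBF2-OE 3 over Vector 3. The vector backbone, the promoter that drives EBF2 and whether the cells are 1 clone or a pool are not given in the sources used here. No source used here ties each of these libraries to a separate culture, so the p-values measure the spread between these libraries, which may be technical. Of 38637 genes listed, 15560 had enough reads to be tested.

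EBF2 belongs to the early B-cell factor family of transcription factors, which bind DNA as dimers at a palindromic sequence and can open chromatin for other regulators. It is best known as a factor that commits precursor cells to brown and beige fat, and the family as a whole acts in B cells, neurons and mesenchymal cells. In the study of pancreatic cancer to which these libraries belong, EBF2 was examined together with KMT2D, the enzyme that places the enhancer mark H3K4me1, and with KLLN, a p53-regulated gene that can halt the cell cycle.

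The short palindrome of the factor is shown first, where it was found within 250 bases before to 50 bases after a RefSeq start of genes that were over 1.5-fold higher in EBF2-OE than in Vector in both numbered pairs. The sequences are RefSeq promoters of build GRCh38.p14, on the strand of the gene, with the match in capitals. The full form TCCCNNGGGA, which reads the same on both strands, was present in the following pair of genes, the gut adhesion gene CEACAM7 (chr19:41688447-41688476, minus strand) and the Wnt receptor ligase RNF43 (chr17:58417574-58417603, minus strand), where the RefSeq start lies inside the gene as the files list it.
CEACAM7: ttggttgtccTCCCAGGGGAcaggggtcca
RNF43: gtgattgcagTCCCAGGGGAgggagtcaga
The shorter core CCCNNGGG, which every full match also holds, was present 35 bases before the start of S100A3 (chr1:153549274-153549303, minus strand), a calcium-binding protein of hair, and within the promoter of COX6B2 (chr19:55354850-55354879, minus strand), a respiratory chain subunit of testis.
S100A3: tgctcaaaacCCCCAGGGgtcgggagggta
COX6B2: cgcgcaggccCCCGAGGGggcgtcggggga
Promoters were listed for 56 of the 83 genes higher in both pairs, for 17 of the 26 lower genes and for 11649 of the genes tested. Among genes with a listed promoter, the full form occurred in 3.57% of the higher genes, 5.88% of the lower genes (1 gene, HCFC2) and 1.3% of all genes tested. The core occurred in 42.9% of the higher genes, 35.3% of the lower genes and 23.3% of all genes tested, so that it was above the share of all genes in both directions. Genes outside both sets also held the core, among them KLLN and PER3. The counts of full matches are too small to compare, and a match is a string of letters in this window, not a binding site.

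The libraries held between 20453362 and 24022927 reads on genes. EBF2 itself had 28 reads in each Vector library, against 5818 in the library EBF2-OE 2 and 90100 in the library EBF2-OE 3. This fits the labels of all 4 libraries, and it also shows that the overexpressing libraries differed widely from each other. In TPM, which divides reads by gene length and brings every library to a common total, EBF2 measured 0.698 and 0.601 in the Vector libraries, 146 in EBF2-OE 2 and 2037 in EBF2-OE 3. On the log2 scale EBF2-OE exceeded Vector by 10.75 (SE 1.55), with a Benjamini-Hochberg adjusted p of 0.9998 in edgeR's quasi-likelihood test. The targeted gene itself therefore did not pass the test, and its EBF2-OE libraries lay 3.81 log2 units apart from each other. In bulk RNA, fewer overexpressing cells and less EBF2 per cell cannot be told apart.

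Over all genes, EBF2 included, the following counts set the scale. The count of genes past an adjusted p of 0.05 with a fold change above 1.5 was 0 in each direction (0% of the genes tested), and the smallest adjusted p was 0.208, for MMRN2. At an unadjusted p under 0.05 there were 208 genes, among which 114 were also over 1.5-fold higher (0.733% of those tested) and 34 over 1.5-fold lower (0.219%). DESeq2 on the same counts called 6 genes higher (EBF2, MMRN2, COX6B2, S100A3, PLEKHG5 and ANPEP) and 1 lower (NR1D1), and limma called 0 in either direction. The biological coefficient of variation was 19%. Where 4 counts or 2 ratios are listed, they follow the order Vector 2, Vector 3, EBF2-OE 2, EBF2-OE 3 and pair 2, pair 3. Values are given as measured, and "higher" or "lower" states the order of the libraries, not a passed test.

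Each gene was also read as 2 ratios that share no library, EBF2-OE 2 over Vector 2 (pair 2) and EBF2-OE 3 over Vector 3 (pair 3), on reads scaled to a common library total (CPM, with TMM factors) plus 0.5. All pair ratios below use this scale, and the added 0.5 draws those of genes with few reads toward no change. Pair 2 put 262 genes over 1.5-fold higher and 728 over 1.5-fold lower. Pair 3 put 1037 higher and 198 lower. For comparison, Vector 3 over Vector 2 put 705 higher and 1134 lower, so that the libraries of the control group differed in more genes than either pair did. Across all genes tested the correlation of the pair ratios was near 0 (Pearson's r = -0.031, Spearman's rho = -0.108), and over the 9988 genes with a mean of at least 10 CPM it was negative (-0.135 and -0.173). These describe genes, which are not independent replicates.

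The genes past 1.5-fold the same way in both pairs were few, at 83 higher (0.533% of those tested, EBF2 among them) and 26 lower (0.167%). Any ratio of the same sign in both pairs was found for 3545 genes above 0 (22.8%) and 3365 below 0 (21.6%). Both EBF2-OE libraries lay above both Vector libraries in 1876 genes (12.1%) and below both in 1680 genes (10.8%). Among the 83 higher genes this separation held for 80, and among the 26 lower genes for 19, both of which the choice of genes favours. The higher set held 70 protein-coding genes, 12 long non-coding RNAs and 1 pseudogene, and the lower set 20 protein-coding genes, 3 long non-coding RNAs and 3 pseudogenes. Just inside and just outside the limit lay ENTPD2 and RAPGEF3 on the higher side, both with a smaller log2 ratio of 0.585 after rounding, and HCFC2 (-0.587) and MAP3K14 (-0.574) on the lower side.

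The ratio of pair 3, whose EBF2-OE library held the most EBF2, exceeded that of pair 2 in 72 of the 83 higher genes. The median log2 ratio of these genes was 0.79 in pair 2 and 1.20 in pair 3. Among all genes positive in both pairs, pair 3 had the larger ratio in 1839 of 3545. Of the 26 lower genes 7 lay further below 0 in pair 3 than in pair 2, against 1779 of the 3365 genes negative in both pairs, with medians of -0.83 and -0.75. Pair 3 also had more genes over 1.5-fold higher than pair 2 in general (1037 against 262) and fewer over 1.5-fold lower (198 against 728). Genes chosen past 1.5-fold in both pairs therefore tend to have their larger ratio in the pair with more such genes. The part of the EBF2 level in this order was not tested.

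MMRN2 encodes multimerin 2, an extracellular matrix glycoprotein of blood vessel walls. It had 6 and 8 reads in Vector libraries 2 and 3, against 248 and 516 reads in EBF2-OE libraries 2 and 3. It passed the filter on low counts only through EBF2-OE, so a difference in this direction was favoured beforehand. Both EBF2-OE libraries lay far above both Vector libraries, with ratios of 16.2 in pair 2 and 28.1 in pair 3. The added 0.5 exceeds the Vector levels of MMRN2 (0.282 and 0.336 CPM) and so lowers these ratios. The log2 fold change in edgeR was 5.80 (SE 0.46), or 55.7-fold. The smaller log2 pair ratio of MMRN2, 4.02, was the second largest after EBF2. The gene lies on the minus strand (chr10:86935540-86957615, hg38) and overlaps SNCG on the plus strand, and the strand setting of the counting is not stated. SNCG itself had 91, 87, 116 and 107 reads in the same order, a difference of less than 1.5-fold in either pair. Of the endothelial markers PECAM1, VWF, CDH5 and KDR none exceeded 20 reads in any library, and CDH5 had 15, 20, 11 and 20 reads.

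S100A3, named above for its promoter, had 143 and 115 reads in Vector and 410 and 441 in EBF2-OE. The EBF2-OE libraries were 2.85-fold and 3.78-fold above their Vector counterparts and nearly equal to each other. Its log2 fold change was 1.78 (SE 0.22), with an unadjusted p of 0.000182 in edgeR's quasi-likelihood test. It overlaps LOC101928034 on the other strand, which had 220, 133, 255 and 216 reads. On the per-length scale it stood at 24.8 and 17.2 TPM in Vector and at 71.8 and 69.4 in EBF2-OE. The Vehicle libraries of the series, from a separate control group, stood at 48.1 and 49.9 TPM, between these groups.

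The other genes with the largest smaller-of-both ratios and at least 1 CPM on average came from unrelated families. COX6B2 had 18 and 9 reads in Vector and 87 and 210 in EBF2-OE, 3.54-fold and 11.2-fold higher with the added 0.5 CPM. LRRC32, the surface protein GARP that holds latent TGF-beta, had 15 and 14 reads in Vector and 63 and 76 in EBF2-OE. CFAP74, a protein of motile cilia, had 21 and 9 reads in Vector and 83 and 79 in EBF2-OE. In these genes, too, no EBF2-OE library came near a Vector library, which choosing by the smaller ratio favours. CFAP74 overlaps LOC107984872 on the other strand, whose counts were 17, 13, 29 and 32.

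Genes of lipid metabolism and of signalling were among them. ALOX5, the 5-lipoxygenase that starts leukotriene synthesis, had 9 and 3 reads in Vector and 42 and 46 in EBF2-OE. PLIN4, a coat protein of lipid droplets, had 26 and 52 reads in Vector and 81 and 236 in EBF2-OE. Its partner on the other strand, HDGFL2, had 2787, 2716, 2397 and 4088 reads, far more than PLIN4, and the counts cannot be separated by strand. GNG13, a G protein subunit, had 7, 22, 34 and 244 reads across the libraries in the same order, while CHTF18 on the other strand had 2067, 1498, 1212 and 2158. HDGFL2 had its most reads in EBF2-OE 3, as PLIN4 did.

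IL11, a cytokine of the IL-6 family, had 72 and 31 reads in Vector and 156 and 197 in EBF2-OE, 2.10-fold and 5.15-fold higher. PLEKHG5, an activator of RhoA, had 85 and 74 reads in Vector and 208 and 326 in EBF2-OE, and shares sequence on the same strand with TNFRSF25, a death receptor that had 12, 15, 24 and 46 reads. The transcriptional repressor ZNF488 had 65 and 48 reads in Vector and 148 and 138 in EBF2-OE. These genes, too, separated the groups without overlap, which their choice favours. LDB3, a protein of the muscle Z disc, the membrane protein TMEM52 and the serine protease PRSS22 completed the 15, with smaller ratios of 2.03-fold, 2.01-fold and 2.01-fold. Vehicle TPM lay near EBF2-OE for ZNF488 (3.54 and 3.5, against 3.66 and 3.07) and PLEKHG5 (4.72 and 4.57, against 4.43 and 6.24). It lay above both EBF2-OE libraries for LDB3 (1.85 and 1.55, against 1.1 and 1.2) and TNFRSF25. For IL11, TMEM52 and PRSS22 it lay below both. Some of the 15 are neighbours on the minus strand. COX6B2 (chr19:55349704-55354719) and IL11 (chr19:55364382-55370463) lie close together, with FAM71E2, also among the 83, between them. TMEM52 (chr1:1917591-1919279) lies beside CFAP74 (chr1:1921957-2003837).

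Further members of the 83 can be grouped by role; they were chosen after their values were seen. Among secreted Wnt proteins, WNT4 had 11, 7, 23 and 58 reads and WNT11 had 4, 13, 18 and 44 reads in the order Vector 2, Vector 3, EBF2-OE 2, EBF2-OE 3. RNF43, which removes Wnt receptors from the surface and is itself a Wnt target, had 7, 10, 18 and 32. GLI1, the transcription factor at the end of the Hedgehog pathway, had 11, 19, 21 and 50. All of these had low counts, and all were highest in EBF2-OE 3. In TPM the Vehicle libraries exceeded both EBF2-OE libraries for GLI1 (1.846 and 1.555, against 0.613 and 1.31), but not for WNT4, WNT11 or RNF43. The Wnt target AXIN2, which was not in the set, had 241, 291, 261 and 370 reads.

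Some of these genes encode matrix proteins, although no member of the list of 40 tested EMT, matrix and invasion genes passed 1.5-fold higher in both pairs. COL11A2 had 42, 41, 67 and 279 reads, COL13A1 had 5, 2, 22 and 21, and the laminin chain LAMA4 had 30, 33, 50 and 72. OLFML2A, a secreted olfactomedin protein, was the most abundant of the group with 1121 and 1833 reads in Vector and 1857 and 3216 in EBF2-OE, 1.72-fold and 1.86-fold higher. In OLFML2A the EBF2-OE 2 library lay only just above Vector 3, and in COL13A1 both EBF2-OE libraries were nearly equal.

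Surface proteins and transporters made up a further group. ANPEP, aminopeptidase N, had 1192 and 984 reads in Vector and 1771 and 2207 in EBF2-OE, 1.54-fold and 2.37-fold higher, and was called by DESeq2 (adjusted p = 0.0322). The adhesion molecule CEACAM1 had 26, 19, 44 and 110 reads. The insulin-responsive glucose carrier SLC2A4 had 24, 36, 47 and 110, and the glutamine carrier SLC38A3 had 2, 5, 24 and 54. TNFRSF1B, a TNF receptor, had 88, 72, 137 and 117 reads. In all of these the lowest EBF2-OE library lay above the highest Vector library. Intracellular members with ample counts were the adaptor SH2B3, a brake on cytokine signalling, with 306, 258, 476 and 501 reads, and the vitamin D hydroxylase CYP24A1 with 164, 106, 292 and 212.

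A set of 12 of the 83 genes had at most 3 reads in each Vector library. They passed the filter on low counts only through EBF2-OE and so had to differ, and all but ZNF423 were named after their values were seen. MMRN2, ALOX5, SLC38A3, COL13A1 and RNF43, described above, had at most 10 reads in each Vector library. They too passed the filter only through EBF2-OE. ZNF423, a zinc finger protein that binds EBF factors, had 1 and 0 reads in Vector libraries 2 and 3, against 12 and 14 reads in EBF2-OE libraries 2 and 3, at least 4.54-fold higher when set against a floor of 3 reads per Vector library. CEACAM7 had 0, 1, 15 and 48 reads, at least 10.8-fold higher. SERPIND1, the plasma thrombin inhibitor heparin cofactor II, had 1, 0, 26 and 35 reads, at least 10.6-fold higher, and lies opposite PI4KA, which had 2427, 2935, 2285 and 2731 reads.

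All 12 were detected with 10 or more reads in both EBF2-OE libraries. The uncharacterised RNA LOC105371042 had 20 and 53 reads there against 0 and 1 in Vector, at least 12.5-fold higher. PGC, the stomach protease precursor progastricsin, had 11 and 19 reads against 1 and 0. Others were ANKRD65, CCDC69, FAM25A, FAM71E2, FRMPD2 and GFY. The bounds of the 12 genes ranged from ZNF423 to LOC105371042. In the Vehicle libraries CEACAM7 and LOC105371042 had 0 and 0 reads and ZNF423 had 1 and 0, while CCDC69 had 3 and 12, within reach of its 10 reads in EBF2-OE 2.

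**Figure D1:**
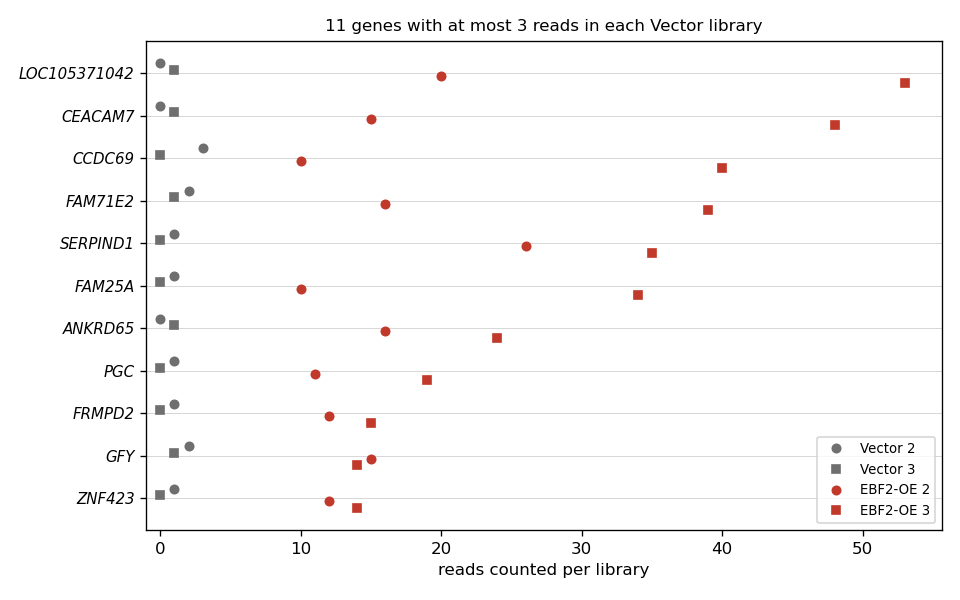
Reads counted in each library (linear axis) for 11 of the 12 genes with at most 3 reads in each Vector library, in the order of their count in EBF2-OE 3. The grey Vector points lie between 0 and 3, the red EBF2-OE points between 10 and 53, and all genes drawn but GFY (14 against 15) have more reads in EBF2-OE 3 than in EBF2-OE 2.

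On the lower side NR1D1 led. It encodes REV-ERB alpha, a nuclear receptor that represses genes of the circadian clock. It had 2192 and 2104 reads in Vector libraries 2 and 3, against 984 and 931 reads in EBF2-OE libraries 2 and 3. The groups were well apart and the ratios nearly equal, at 0.470 in pair 2 and 0.473 in pair 3. The log2 fold change was -1.09 (SE 0.14, unadjusted p = 0.000262 by edgeR's quasi-likelihood test, adjusted p = 0.9998). The gene (chr17:40092793-40100589, hg38, minus strand) overlaps THRA on the other strand, which had 2151, 2516, 2143 and 1966 reads. On the per-length scale NR1D1 stood at 107 and 88.8 TPM in Vector, 48.6 and 41.3 in EBF2-OE, and 32.2 and 33.5 in the Vehicle libraries, which lay below both groups.

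Other lower genes separated the groups at smaller counts. OASL, an interferon-induced antiviral protein, had 76 and 80 reads in Vector and 28 and 31 in EBF2-OE. ARRDC4, an arrestin-like protein that limits glucose uptake, had 217 and 148 reads in Vector and 82 and 82 in EBF2-OE. CREBRF, a regulator of the stress factor CREB3, had 447 and 631 reads in Vector and 231 and 375 in EBF2-OE. In each of them both EBF2-OE libraries were below both Vector libraries. STMN3, a microtubule-destabilising protein, and the cilium protein TTC21A also separated, with 332, 200, 155 and 110 and with 66, 85, 34 and 48 reads.

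CCT6P3 and SMG1P1 are pseudogenes and U2AF1L5 is a near-identical copy of a splicing factor gene, so reads may have been shared with their parent genes. CCT6P3 had 116, 96, 47 and 48 reads, SMG1P1 had 266, 240, 135 and 130, and U2AF1L5 had 47, 62, 25 and 26. All separated the groups, and their counts are uncertain for that reason.

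For the remaining lower genes the libraries numbered 2 and 3 lay as far apart as the groups did. TXNIP, the thioredoxin-binding protein that also limits glucose uptake, had 2113 and 922 reads in Vector and 1025 and 514 in EBF2-OE. SNAI2, a transcription factor of epithelial-mesenchymal transition, had 255 and 512 reads in Vector and 145 and 313 in EBF2-OE. AMOTL2, a target and regulator of the Hippo pathway, had 3105 and 8221 reads in Vector and 1975 and 5095 in EBF2-OE. In each case the groups overlapped although both pairs pointed the same way. The mitochondrial carrier SLC25A25 (1772, 3951, 1009 and 2460) and the receptor FGFR2 (17, 68, 6 and 37) showed the same order. Without Vector 3, the log2 fold changes of FGFR2 and AMOTL2 turned positive, to 0.29 and 0.15.

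EGR1, an immediate early transcription factor, showed the largest such gap among the genes named. It had 169 and 6348 reads in Vector libraries 2 and 3, against 74 and 4038 reads in EBF2-OE libraries 2 and 3. Its log2 fold change of -0.58 had a standard error of 1.76 and ran from -5.24 to 3.52 when single libraries were left out. Of the 27 immediate early and AP-1 genes tested, 2 were higher and 6 lower in both pairs, against 22.8% and 21.6% of all genes. Their median log2 ratio was -0.30 in pair 2 and 0.29 in pair 3.

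The genes that the study ties to EBF2 were measured with ample counts. KLLN had 111 and 153 reads in Vector and 157 and 258 in EBF2-OE, 1.43-fold and 1.73-fold higher. The groups did not overlap, and KLLN ranked 117 by the smaller ratio among the 3545 genes above 0 in both pairs. The log2 fold change was 0.72 (SE 0.28, unadjusted p = 0.0392, adjusted p = 0.9998 by edgeR's quasi-likelihood test). With a fold change of 1.65, KLLN was among the 114 genes over 1.5-fold higher at an unadjusted p under 0.05. The study states the same limits for fold change and p, applied with DESeq2. Its methods also name Benjamini-Hochberg correction and do not say whether that p is the adjusted one. DESeq2 on the same counts, at an adjusted p under 0.05, did not call KLLN here. The study also reports higher KLLN mRNA and protein in EBF2-OE cells by qPCR and Western blot. Per length, KLLN stood at 3.27 and 3.88 TPM in Vector and 4.66 and 6.88 in EBF2-OE, and at 8.99 and 10.3 in the Vehicle libraries. KMT2D had 5405, 6341, 5198 and 6010 reads, with pair ratios of 1.00 and 1.01. KDM1A, the demethylase that removes H3K4 methylation, had 3985, 4485, 4242 and 3932 reads, with pair ratios of 1.11 and 0.931. Neither of these enzymes separated the groups. Of 9 tested genes outside the UGT1A locus that the study listed as shared with the inhibitor of KDM1A, 3 were over 1.5-fold higher in both pairs (PRSS22, TMEM52 and PRSS36), against 0.533% of all genes, a list chosen on these samples and so no independent evidence.

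The H3K4 methylation genes were described as a list. Of 31 tested, 4 were higher and 7 lower in both pairs, against the 22.8% and 21.6% of all genes. Of those with the same sign in both pairs, the corepressor RCOR2 had the largest smaller ratio, with 288, 196, 205 and 129 reads. Of the EBF family and its partners, EBF1, EBF3 and EBF4 had at most 11 reads in any library, ZNF521 had 163, 190, 147 and 157, and the chromatin remodelling subunit SMARCA4 had 5087, 6440, 4795 and 5927. Only ZNF423 among the 19 partners tested passed 1.5-fold in both pairs.

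The gene programmes for which EBF2 and its family are known elsewhere had several defining members at 0 and others expressed. Among brown and white fat genes, ADIPOQ, CIDEA, ADRB3, FABP4 and ESRRG had 0 reads in all libraries, and UCP1 had 2, 5, 1 and 5. Other members were expressed, with PPARG at 641, 673, 670 and 450 reads, LPL at 1853, 2334, 1818 and 2523, and PRDM16 at 71, 65, 55 and 89. Of the 13 fat genes tested 4 were higher and 2 lower in both pairs, against 22.8% and 21.6% of all genes. The fatty acid regulator PPARA had 502, 459, 592 and 507 reads, and the potassium channel KCNK3 had 92, 91, 108 and 139. Of the 18 B-lineage genes 5 could be tested, and PAX5, MS4A1, VPREB1 and POU2AF1 had at most 5 reads in any library. At this depth a count of 0 allows up to 3 reads, or 0.126 to 0.147 CPM after TMM scaling, for counting error only.

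The epithelial identity of the cells was mixed by its markers. KRT8, KRT18 and KRT7, keratins of simple and ductal epithelium, were abundant, at 2268 TPM for KRT8 in Vector 2. KRT19 had at most 2 reads, EPCAM at most 5 and CDH1 (E-cadherin) 14, 27, 7 and 19 reads, so these defining ductal markers were at or near 0. KRT8 had 39585, 44278, 45248 and 58953 reads and KRT18 had 20033, 20451, 21776 and 28623. Both were higher in both EBF2-OE libraries, by 1.19-fold and 1.41-fold for KRT8, and they lie next to each other with some overlap on opposite strands.

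Of the 9 fibroblast markers tested, 7 were higher and 1 lower in both pairs, against 22.8% and 21.6% of all genes. PDGFRB, a receptor of mesenchymal cells, had 306 and 377 reads in Vector and 424 and 526 in EBF2-OE, 1.43-fold and 1.47-fold higher. ACTA2 had 31, 37, 41 and 70 reads, THY1 had 14, 14, 33 and 22, and COL3A1 had 71, 80, 81 and 99. In TPM the Vehicle libraries exceeded both EBF2-OE libraries for PDGFRB (16.8 and 15.6, against 7.49 and 8.35) and COL3A1, but not for ACTA2 or THY1. The summed level of the fibroblast list was 59.5, 54.6, 55.2 and 72.4 TPM in the order Vector 2, Vector 3, EBF2-OE 2, EBF2-OE 3. It did not separate the groups, and its largest member, COL1A1, had 1810, 1935, 1419 and 2299 reads.

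Gene lists were described by how many members had the same sign in both pairs, to be read against 22.8% and 21.6% of all genes. Genes of the lysosome had 19 higher and 3 lower of 44 tested, with LIPA, the acid lipase, at 1395, 1398, 1742 and 1475 reads, the proton pump subunit ATP6V1A at 2014, 2509, 2360 and 2616, and the protease CTSB at 2919, 3160, 3086 and 3596. NRF2 targets, the genes of the antioxidant response, had 16 higher and 2 lower of 27, among them NQO1 (1.13-fold and 1.18-fold) and PIR (1.26-fold in both pairs). The steps were small, and no gene of these lists passed 1.5-fold in both pairs.

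Lipid genes also had more members higher than lower. Cholesterol genes had 13 higher and 1 lower of 33, with MSMO1 at 1104, 1194, 1267 and 1328 reads and HSD17B7 at 672, 766, 728 and 946. The sterol sensor NR1H3 had 737, 785, 837 and 824. Fatty acid genes had 13 higher and 3 lower of 28. ACLY, which makes acetyl-CoA for lipid synthesis, had 12076 and 14924 reads in Vector and 14460 and 17298 in EBF2-OE, 1.25-fold and 1.23-fold higher, and the groups overlapped before scaling. The desaturase SCD was 1.13-fold and 1.10-fold higher, and ACSL5, which activates fatty acids, had 28, 47, 50 and 72 reads and was the single gene of both lists past 1.5-fold in both pairs.

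Among the lists with more members lower than higher were those of DNA synthesis and of stress and growth signalling. S phase genes had 0 higher and 15 lower of 36, but their median log2 ratio was 0.003 in pair 2 and -0.20 in pair 3. POLE, the leading-strand polymerase, had 4394 and 4886 reads in Vector and 3339 and 3878 in EBF2-OE, 0.792 and 0.843 of control. POLE2, E2F1 and CCNE2 had pair ratios of 0.867 and 0.810, 0.828 and 0.823, and 0.886 and 0.787. Mitosis genes had 0 higher and 4 lower of 36, with medians of 0.17 and -0.30, so that the pairs went opposite ways, as they did for the replication-dependent histones (-0.37 and 0.18).

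Targets of ATF4, the factor of the integrated stress response, had 1 higher and 12 lower of 32. CHAC1, which breaks down glutathione, had 151 and 215 reads in Vector and 98 and 112 in EBF2-OE, and DDIT3, which encodes CHOP, had 521, 585, 297 and 433. NUPR1 had 1631, 2235, 1232 and 1628, where EBF2-OE 3 nearly reached Vector 2. ERK feedback genes had 0 higher and 7 lower of 15, with the pair ratios of PHLDA1 at 0.715 and 0.688 and of the phosphatase DUSP4 at 0.782 and 0.720. FOSL1, an AP-1 subunit, had 1020, 1660, 777 and 1095 reads.

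Inflammatory lists held genes of both directions. Interferon and antigen presentation genes had 4 higher and 9 lower of 35: IRF1, the interferon-response activator, had 484, 469, 249 and 350 reads, whereas IFIT1 had 78, 117, 144 and 166. Among NF-kB targets, chemokines and cytokines, 4 were higher and 8 lower of 24, with NFKB2 at 3323, 3174, 2355 and 2456 reads and TNFAIP2 at 2620, 2504, 3375 and 4559. Of 36 p53 targets 12 were higher and 6 lower. TRIM22, an antiviral protein on that list, had 19, 16, 38 and 120 reads, and SESN2, a stress sensor, had 784, 686, 480 and 552.

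Lists tied to tumour phenotype showed no common direction. EMT, matrix and invasion genes had 11 higher and 4 lower of 40, with COL4A1, a basement membrane collagen, 1.38-fold and 1.37-fold higher and the EMT factor ZEB2 at 304, 458, 204 and 349 reads. Wnt, Notch and TGF-beta targets had 10 higher and 3 lower of 26, and SKIL, a TGF-beta repressor, had 1768, 1782, 1342 and 1293 reads. Classical pancreatic cancer markers had 3 higher and 2 lower of 9, and basal-like markers 3 higher and 7 lower of 13. On the basal-like list PTGES, the prostaglandin E synthase, had 1430, 2137, 2274 and 4662 reads, 1.65-fold and 2.31-fold higher. The EGF receptor family and its ligands had 3 higher and 2 lower of 9, with ERBB3 at 37, 36, 42 and 111 reads. Glycolysis and hypoxia genes had 7 higher and 9 lower of 36, among which ALDOC had 3863, 3368, 4393 and 4121 reads and PFKFB3 had 1338, 1468, 1103 and 1178.

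The remaining lists are given by their counts. Ribosomal protein genes had 10 higher and 1 lower of 79, with a median log2 ratio of 0.13 in pair 2 and -0.04 in pair 3. Genes of the unfolded protein response had 5 higher and 2 lower of 25, metallothionein genes 0 and 0 of 5, and blood and endothelium markers 0 and 1 of 2. The summed level of the blood and endothelium list was 3.46 and 1.89 TPM in Vector and 0.74 and 2.42 TPM in EBF2-OE.

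**Figure D2:**
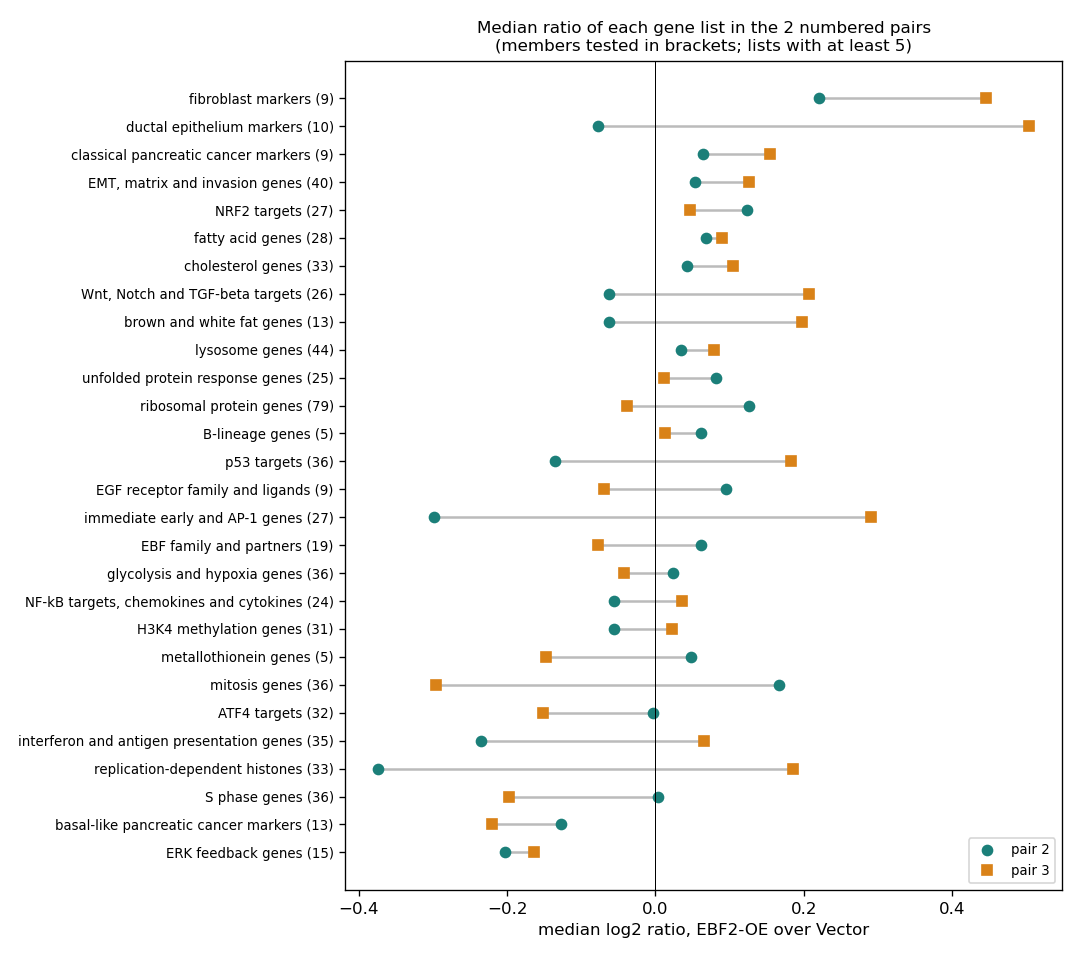
Median log2 ratio of EBF2-OE over Vector for each gene list with at least 5 members tested, with circles for pair 2, squares for pair 3 and a line between them. Fibroblast markers lie above 0 in both pairs and ERK feedback genes and basal-like markers below 0 in both, while ductal markers, immediate early genes, mitosis genes and histones lie on opposite sides of 0 in the 2 pairs.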

How the data were processed

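Poly(A)-selected RNA of SW1990 cells was sequenced. Per the study's methods, HISAT2 with default parameters placed the reads on hg38, and HTSeq counted them per gene. The authors deposited the raw counts together with TPM made from them. Versions and the strand setting are not given in the sources used here.

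The deposited counts of Vector 2, Vector 3, EBF2-OE 2 and EBF2-OE 3 went into edgeR 4.0.16 under R 4.3.3 (quasi-likelihood test, TMM, filterByExpr with a minimum count of 10, two-sided, Benjamini-Hochberg adjustment over all genes tested). A call needed an adjusted p under 0.05 and a fold change above 1.5. Standard errors came from the test statistic. Pair ratios used TMM-scaled CPM plus 0.5. The named genes were EBF2, KLLN, KMT2D and KDM1A, the 15 genes per direction with the largest smaller pair ratio at a mean of at least 1 CPM, and up to 4 genes per gene list (30 lists). Others are marked as chosen after their values were seen. The genes and lists were chosen with earlier results of these data known. Alternatives used DESeq2 1.42.0, limma 3.58.1, other filters, scalings and pseudocounts, and single libraries left out. The fits were tested on simulated data. Of several RefSeq starts of a gene, that nearest to its start in the files was used. Lower bounds use a floor of 3 reads per library. The Vehicle libraries served as levels. Apart from that, the Vehicle and GSK-LSD1 libraries entered only the fit over all 8 libraries. Results for some further genes of the naming rule are left out here.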

Additional observations from a re-analysis of the deposited data

How the results depend on the processing

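With the replicate block, that is, the library number taken as a pair, edgeR called 4 genes higher (EBF2, GNG13, MMRN2 and S100A3) and 1 lower (NR1D1); same-numbered libraries deviated together across genes (Pearson's r = 0.347), but with only 2 numbers the pairing remains a hint from the data. DESeq2 called 6 higher and 1 lower, 1 fit over all 8 libraries 2 higher (MMRN2 and S100A3), and no low-count filter 64 and 10. Unadjusted p-values gave 114 and 34. Leaving out 1 library gave 1 to 2 higher (EBF2, MMRN2) and 0 to 2 lower calls, with the lone library of a group assumed to vary like the other group. The 83 and 26 genes past 1.5-fold in both pairs became 174 and 68 with a pseudocount of 0.1 CPM, 45 and 11 with 1 CPM, 41 and 16 with at least 10 counts in every library, and 24 and 2 at 2-fold; crossed numbers gave 79 and 21. The log2 fold change of KMT2D, 0.01, became -0.002 with DESeq2, -0.005 with no low-count filter and -0.001 over 8 libraries, and ran from -0.03 to 0.041 with single libraries left out. Under the same omissions KDM1A ran from -0.106 to 0.147, FGFR2 from -2.62 to 0.289, AMOTL2 from -1.34 to 0.148 and EGR1 from -5.24 to 3.52. The causes were not tested. Of 111 named genes all kept their direction under limma, the size factors of DESeq2 and the replicate block.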

Other observations

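NR1D1 and HLF, both lower in EBF2-OE, are genes of the circadian clock, and a list of 18 clock genes was drawn up after those values were seen. Of these, 9 were lower (NR1D1 and HLF included) and 2 higher in both pairs, against 21.6% and 22.8% of all genes, with a median log2 ratio of -0.32 in pair 2 and -0.24 in pair 3, and no test was made. HLF, a clock-controlled transcription factor, had 24, 20, 2 and 7 reads in the order Vector 2, Vector 3, EBF2-OE 2, EBF2-OE 3. Its relative TEF had 222, 246, 133 and 187, the second REV-ERB gene NR1D2 had 1071, 1707, 731 and 1094, and PER3 had 596, 701, 444 and 534. The higher genes were BHLHE40, with 10559, 6022, 10146 and 10126 reads, and RORA, with 48, 32, 55 and 47. Before scaling BHLHE40 had fewer reads in EBF2-OE 2 than in Vector 2, so its place in pair 2 rests on the scaling. In HLF, TEF, NR1D2 and PER3 both EBF2-OE libraries were below both Vector libraries after scaling. The time of harvest is not given in the sources used here, and its part was not tested.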
